A study of Mus musculus with 180 samples.

Results

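The AP-1 family genes described here are Fos, Fosb, Fosl2, Jun, Junb, Jund and Atf3, the 7 rows of those names among the 54429 genes of the merged count table; the rule that picks them is a list of names and uses no measured value, although the list was drawn up with earlier results of these data known. AP-1 is a transcription factor made of pairs of leucine-zipper proteins, most often a Fos-type with a Jun-type protein, that binds short DNA sites in enhancers and promoters. Fos, Fosb, Junb and Atf3 are immediate-early genes, whose transcription starts within minutes of calcium entry and kinase signalling in an active neuron, and in the hippocampus Fos RNA is a common mark of recent activity. Jund and Jun have higher resting levels than Fos, Fosb and Atf3. The Fosb gene also gives a truncated, long-lived protein, ΔFosB, from an alternatively spliced RNA. Reads counted per gene cannot tell the 2 Fosb RNAs apart.

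RNA had been sequenced from the hippocampus of 30 male mice in 180 libraries, 6 from each mouse. All mice carried the transgene Tg(Camk2a-cre)T29-1Stl (B6.Cg background) and the allele Rpl22tm1.1Psam (B6N.129 background), so that Cre driven by the Camk2a promoter, active mainly in excitatory forebrain neurons, switches on an HA-tagged Rpl22 ribosomal protein. The groups were NoCFC Sleep (8 mice, no training, then sleep), NoCFC SD (7 mice, no training, then sleep deprivation), CFC Sleep (8 mice, contextual fear conditioning, then sleep) and CFC SD (7 mice, conditioning, then sleep deprivation); the series text calls the untrained mice HC. Each homogenate had been split into a supernatant (SUP, cytosolic ribosomes) and a pellet (PELL, membrane-bound ribosomes), and each fraction into an unselected Input, an anti-HA capture of ribosomes of Camk2a-cre cells (here the Camk2a capture) and a capture with an antibody against ribosomal protein S6 phosphorylated at residues 244-247, a mark of highly active cells (the pS6 capture). The ages and the length of sleep deprivation are not given in the sources used here. A different level in a capture can come from more cells caught or from more RNA per cell, which cannot be told apart in these libraries.

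Each library held 11980405 to 26953695 counts, and levels below are in CPM, a gene's counts per 1000000 counts of its library after TMM scaling. The 7 marker genes of excitatory neurons summed to a median of 10639 CPM in the cytosolic Camk2a capture and 8190 CPM in the cytosolic Input. In contrast, 9 inhibitory-neuron markers summed to 128.9 against 805.4 CPM and 7 astrocyte markers to 164.7 against 1435 CPM. The label of this capture was thus borne out in the cytosolic fraction. Membrane Camk2a held more astrocyte-marker RNA than cytosolic Camk2a, as given with the training results. No library type had a marker at 0 in all its libraries. By their numbers, mice 1 to 11 were all untrained, mice 12 to 22 all trained and mice 23 to 30 held 2 of each group, so in mice 1 to 22 training and number run cannot be told apart; values for mice 23 to 30 alone are given for the training results of Fos, Fosb and their ratio in the pS6 captures. Mouse 1, a NoCFC Sleep mouse, stood high in Fos in several of its 6 libraries, and 7 libraries correlated less well with the others of their type (mouse 19 in both pS6 captures, mouse 6 in cytosolic Input, mouse 22 in membrane Camk2a and Input, mice 16 and 30 in membrane Input); results that rest on them are given with and without them. Nothing in the labels says whether mice shared a litter or a day, so the spread between mice is the error in tests within a library type. The main fits of pairs of types took the libraries of a mouse as separate. A fit with the mouse number as a block was an alternative there.

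The 7 genes passed the filter on low counts in all 6 library types. In GRCm38 coordinates Fos lies at chr12:85473890-85477273 (plus strand), Fosb at chr7:19302696-19310051 (minus), Fosl2 at chr5:32135801-32157842 (plus), Jun at chr4:95049034-95052222 (minus), Junb at chr8:84974484-84978718 (minus), Jund at chr8:70698949-70700616 (plus) and Atf3 at chr1:191170296-191218039 (minus). Exons of Jun overlap those of the antisense gene Junos, exons of Junb those of Prdx2 on the opposite strand, and exons of Jund those of the antisense gene Gm11175. Whether the authors' counting used strand is not given in the sources used here, so the counts of these 3 genes may hold reads of their partners. No exon of another gene overlaps those of Fos, Fosb, Fosl2 or Atf3.

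The 250 bases before the RefSeq start (GRCm38.p6, read 5′ to 3′ on the gene's strand) are shown for Fos and Fosb because both were called after sleep loss and Fosb alone of the pair after training. The capitals mark TGACG, the core of the cAMP response element bound by CREB-type factors, searched on both strands. The Fos sequence is chr12:85473640-85473889 (plus) and the Fosb sequence chr7:19310046-19310295 (minus).
Fos: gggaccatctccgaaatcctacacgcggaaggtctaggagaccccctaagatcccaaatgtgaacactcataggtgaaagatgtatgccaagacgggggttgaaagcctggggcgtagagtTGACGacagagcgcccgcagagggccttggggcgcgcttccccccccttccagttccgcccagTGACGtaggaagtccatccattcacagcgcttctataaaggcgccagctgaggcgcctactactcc
Fosb: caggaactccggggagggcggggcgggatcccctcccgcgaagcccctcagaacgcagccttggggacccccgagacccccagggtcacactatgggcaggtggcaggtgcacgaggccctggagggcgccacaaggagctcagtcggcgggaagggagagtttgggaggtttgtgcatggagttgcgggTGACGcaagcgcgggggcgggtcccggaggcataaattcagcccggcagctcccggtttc
Fos holds the core 2 times, 129 to 125 and 66 to 62 bases before its start, and Fosb 1 time, 60 to 56 bases before. Among the other members Junb holds it at 106 to 102 bases and Atf3 on the opposite strand at 7 to 3 bases. Fosl2, Jun and Jund do not hold these letters in their windows. Not every RefSeq start is the end of the gene span given above. The windows of Atf3 (chr1:191183334-191183583) and Fosl2 (chr5:32136222-32136471) lie inside those spans. That of Jund (chr8:70697489-70697738) lies before its span without adjoining it. Other starts of these genes were not searched. Of 32851 promoter windows of the same length 17.8% hold TGACG. The AP-1 half-site pair TGANTCA and the CArG box of serum response factor, present in 6.75% and 1.47% of these windows, were found in none of the 7. A match describes the letters and does not show that a factor binds. Sites beyond the 250 bases, or with other letters, were not searched. A missing match thus does not show that a gene lacks such a site.

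Per length of exon, the Jun-type genes were far above the Fos-type genes in every library type. In cytosolic Input the median over 30 mice was 68.2 CPM per kb for Jund, 66.3 for Jun, 43.8 for Junb, 4.48 for Fos, 4.23 for Fosl2, 0.740 for Fosb and 0.388 for Atf3. In cytosolic pS6 the order was Jun (median 154, range 117 to 180 CPM per kb), Junb (96.1, 52.5 to 148), Jund (90.6, 74.1 to 107), Fos (9.56, 3.85 to 25.3), Fosl2 (8.80, 6.09 to 15.9), Fosb (4.69, 1.17 to 12.8) and Atf3 (1.64, 1.06 to 3.47). In that capture each gene's range overlapped that of its neighbour in this order, except for Jund and Fos, where the lowest Jund library was above the highest Fos library. Atf3, which codes for a stress-induced partner of the Jun proteins, was the lowest member, with 43 to 162 counts per library in cytosolic pS6 and 5 to 28 in cytosolic Camk2a, so small changes of it could not be seen at this depth outside the pS6 captures.

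**Figure D1:**
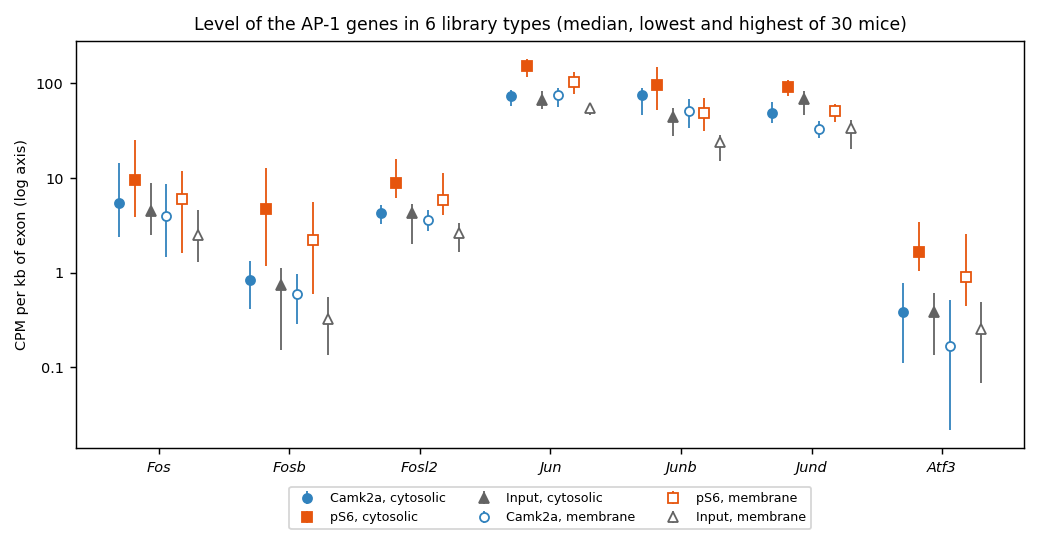
Level of the 7 AP-1 genes in the 6 library types in CPM per kb of exon (log axis); points are medians over 30 mice and lines run from the lowest to the highest mouse. Jun, Junb and Jund lie above Fos, Fosl2, Fosb and Atf3 in each type, and the pS6 captures (squares) hold the highest medians of Fosb and Atf3, 4.69 and 1.64 CPM per kb in the cytosolic fraction.

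The capture comparison asks which members are richer in ribosomes of highly active or of Camk2a-cre cells than in the Input of the same fraction; a gene counted as changed with an adjusted p under 0.05 and a fold of at least 2. Set against cytosolic Input, cytosolic pS6 was richer in 6 of the 7 genes, where 11.4% of all genes tested were higher. Fosb, with 0.961 to 6.98 CPM (median 4.62) in Input and 7.27 to 80.0 CPM (median 29.3) in pS6, did not overlap between the types and was higher by 2.77 ± 0.09 (log2 fold change ± SE, adjusted p = 1.4e-35). Atf3 followed at 2.26 ± 0.11, then Fos at 1.42 ± 0.08, Jun at 1.29 ± 0.03, and Fosl2 and Junb both at 1.28, with SE of 0.05 and 0.06. Jund, the member known for its steady level, was higher by less than 2-fold, at 0.50 ± 0.04. In the membrane fraction pS6 was richer than Input in 5 of 7 (7.23% of all genes), led by Fosb at 2.63 ± 0.11 and Atf3 at 1.72 ± 0.14, with Fosl2 at 1.25 ± 0.06, Fos at 1.19 ± 0.11 and Junb at 1.04 ± 0.06.

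Against the Camk2a capture the list was shorter. In the cytosolic fraction 3 of 7 were higher in pS6 (22.3% of all genes): Fosb at 2.27 ± 0.09, Atf3 at 2.01 ± 0.11 and Fosl2 at 1.02 ± 0.04. The last stood just past the 2-fold limit and fell under it without the libraries that stand apart, at 0.99, and without the low-count filter, at 0.97. In the membrane fraction Atf3 (2.15 ± 0.18) and Fosb (1.71 ± 0.09) were higher in pS6 (16.5% of all genes), and Fosl2 was at 0.66 ± 0.05. In both fractions Fosb and Atf3 thus stood at least 2-fold higher in pS6 than in either other library type. Junb did not pass that limit against Camk2a, at 0.27 ± 0.06 among cytosolic and at -0.19 ± 0.06 among membrane libraries.

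The Camk2a capture itself differed little from Input in these genes. In the cytosolic fraction none of 7 passed both limits (0.371% of all genes were higher), with Junb at 0.90 ± 0.05, Fos at 0.44 ± 0.10 and Fosb at 0.38 ± 0.09; 6 of the 7 passed on the adjusted p alone, and DESeq2 also called none. In the membrane fraction Junb was higher by 1.22 ± 0.06 (1.9% of all genes), with Fosb at 0.91 ± 0.10 and Fos at 0.70 ± 0.12. No member differed 2-fold between membrane and cytosolic fraction in any of the 3 captures (9.96% of all genes fell 2-fold from cytosolic to membrane pS6, 10.2% for Camk2a and 8.97% for Input), by edgeR or by DESeq2, although 7, 5 and 5 of the 7 passed on the adjusted p alone. In Camk2a Jun was higher among membrane libraries, by 0.31 ± 0.04 (adjusted p = 3.6e-10), and Atf3 (-0.83 ± 0.18), Jund (-0.28 ± 0.05), Fosb (-0.28 ± 0.08) and Junb (-0.27 ± 0.05) were lower. In pS6 all 7 were lower in the membrane fraction, from -0.91 ± 0.09 for Fosb to -0.37 ± 0.04 for Jun. In Input 5 of 7 were lower on the adjusted p alone, from -0.83 ± 0.11 for Fosb to -0.41 ± 0.05 for Fosl2, with Atf3 at -0.27 ± 0.14 (adjusted p = 0.067) and Jun at -0.05 ± 0.03, a value that turned to 0.06 with RLE scaling, a scaling that moves the median of all genes there from -0.12 to -0.02.

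Sleep loss raised the Fos-type genes and Junb, and left Jun, Jund and Atf3 without a called change in any library type. The comparison was SD minus Sleep over both training arms, 14 against 16 mice, with an adjusted p under 0.05. In cytosolic pS6, 4 of 7 rose and none fell (4.6% of all genes rose), with a median change over the 7 of 0.53 against 0.00 over all genes. In membrane pS6, 4 of 7 rose (1.11%), in cytosolic Camk2a 3 (4.13%), in cytosolic Input 3 (2.04%), in membrane Camk2a 2 (2.16%) and in membrane Input 1 (1.05%). No member fell in any type.

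Fos, the prototype immediate-early gene, ran from 9.05 to 22.7 CPM (median 15.4) in NoCFC Sleep and from 27 to 57.7 (median 44.4) in NoCFC SD in cytosolic pS6. In trained mice it ran from 11.6 to 22.3 CPM (median 17.5) in CFC Sleep and from 33.1 to 59.6 (median 43.5) in CFC SD. Every SD mouse was above every Sleep mouse in this library type, and the rise was 1.43 ± 0.13 (adjusted p = 6.7e-09). By number run the rise was 1.54 (mice 1 to 11), 1.31 (mice 12 to 22) and 1.41 (mice 23 to 30). Fos was also the member called in all 6 types: it rose by 1.03 ± 0.15 in membrane pS6, 0.86 ± 0.17 in cytosolic Camk2a, 0.72 ± 0.19 in membrane Camk2a, 0.65 ± 0.10 in cytosolic Input and 0.59 ± 0.14 in membrane Input. Over both arms the Sleep and SD mice overlapped in the other 5 types. In cytosolic Camk2a the overlap among untrained mice came from mouse 1, at 24 CPM in a NoCFC Sleep group whose other mice had at most 9.41 CPM, while NoCFC SD mice had 12.6 to 33.8. Without a low-count filter the rises in membrane Camk2a and membrane Input no longer passed, with adjusted p of 0.086 and 0.053.

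Fosb ran in cytosolic pS6 from 7.27 to 17.6 CPM (median 12.9) in NoCFC Sleep and from 23.6 to 46.4 (median 29.5) in NoCFC SD. In trained mice it ran from 22.4 to 33.8 CPM (median 28.9) in CFC Sleep and from 41.3 to 80.0 (median 52.6) in CFC SD. Within each training arm the SD and Sleep mice did not overlap, whereas trained mice that slept overlapped untrained mice kept awake. Fosb rose after SD by 1.16 ± 0.12 in cytosolic pS6 (adjusted p = 3.1e-08), 1.02 ± 0.12 in membrane pS6, 0.54 ± 0.13 in cytosolic Input and 0.39 ± 0.12 in cytosolic Camk2a (adjusted p = 0.038). The last was called under 3 of 5 alternative ways of processing, and did not pass without mouse 1 (adjusted p = 0.062). In membrane Camk2a it was at 0.33 ± 0.11 (adjusted p = 0.12) and in membrane Input, with 13 to 60 counts per library, at 0.10 ± 0.17.

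**Figure D2:**
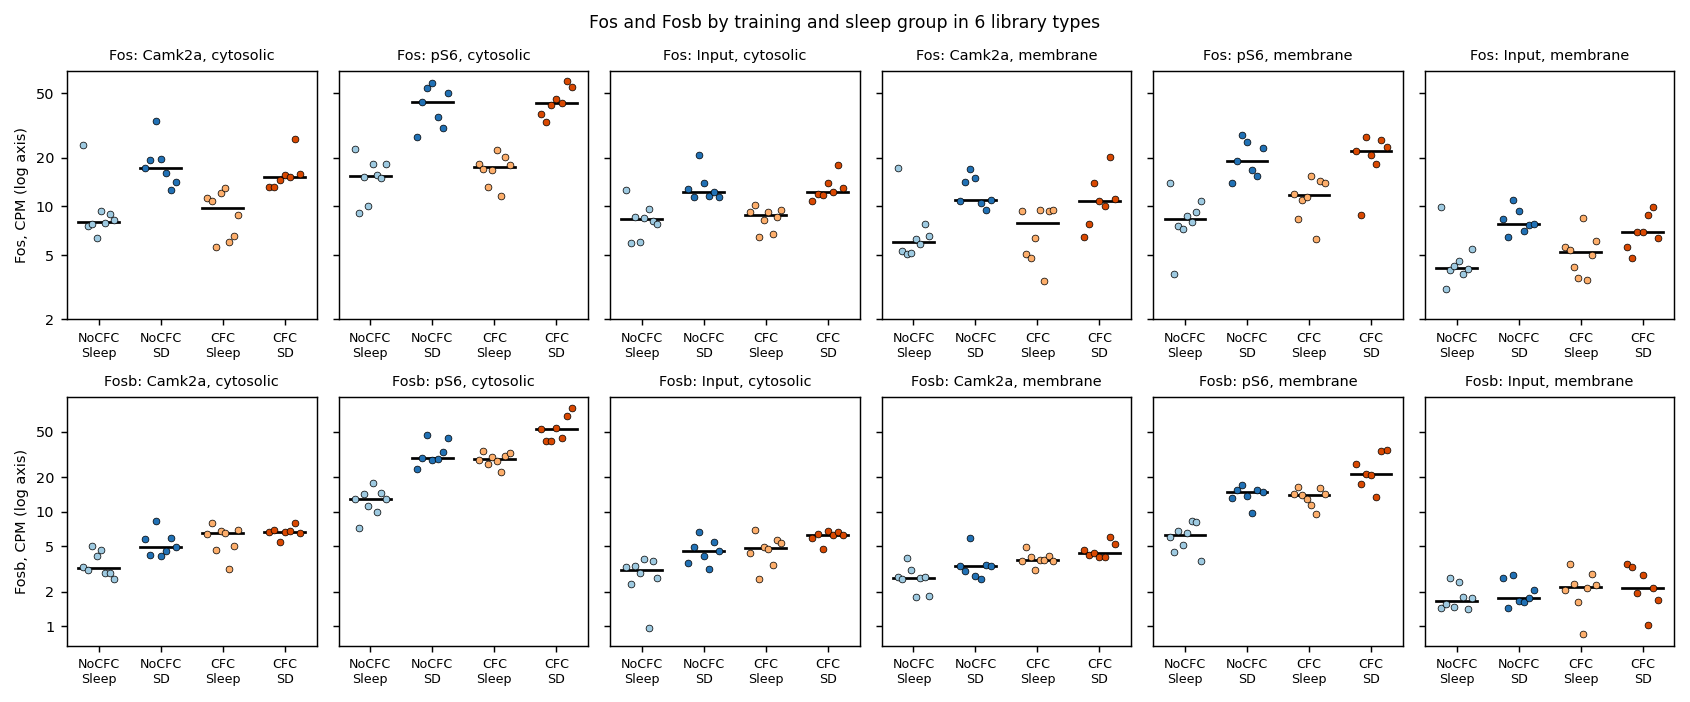
CPM (log axis) of Fos (top) and Fosb (bottom) in each of 30 mice by group in the 6 library types; points are mice and bars are group medians. In cytosolic pS6 Fos separates SD (27 to 59.6 CPM) from Sleep (9.05 to 22.7 CPM) in both training arms, while Fosb steps up with SD and with CFC.

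Fosl2, which codes for the Fos-related protein Fra-2, had the smallest p of the 7 after SD and ranked 4 among all genes in cytosolic pS6. It ran there from 58.9 to 67.5 CPM (median 64.5) in NoCFC Sleep, 79.1 to 144 (median 108) in NoCFC SD, 73.5 to 86.6 (median 81.9) in CFC Sleep and 106 to 154 (median 127) in CFC SD. The SD and Sleep mice did not overlap within either training arm, and the rise was 0.73 ± 0.06 (adjusted p = 4e-11). It was 0.61 ± 0.08 in membrane pS6, 0.29 ± 0.07 in cytosolic Input, 0.24 ± 0.05 in cytosolic Camk2a and 0.19 ± 0.05 in membrane Camk2a (adjusted p = 0.034), the last of which did not pass without mouse 1 (0.059) or without the libraries that stand apart (0.05). Junb, a Jun-type immediate-early gene, rose in the pS6 captures alone among the 6 types by the test, by 0.53 ± 0.08 (adjusted p = 1.3e-05) for cytosolic and 0.37 ± 0.08 (adjusted p = 0.0054) for membrane pS6. Its cytosolic pS6 values were 121 to 228 CPM in NoCFC Sleep, 197 to 311 in NoCFC SD, 165 to 217 in CFC Sleep and 226 to 339 in CFC SD, separate in the trained arm and overlapping in the untrained arm.

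Jun, the main partner of Fos, stayed between 374 and 574 CPM over all 30 mice in cytosolic pS6, and its SD effect was -0.02 ± 0.05 (95% interval of -0.11 to 0.07). Over the 6 types its SD effect lay between -0.09 ± 0.05 in membrane pS6 and 0.04 ± 0.05 in cytosolic Camk2a. Jund was at 0.10 ± 0.05 in cytosolic pS6 (adjusted p = 0.22) and at -0.14 ± 0.07 in membrane Input (adjusted p = 0.48). Atf3 ran from -0.52 ± 0.31 in membrane Camk2a to 0.47 ± 0.22 in membrane Input, with neither value past the test.

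**Figure D3:**
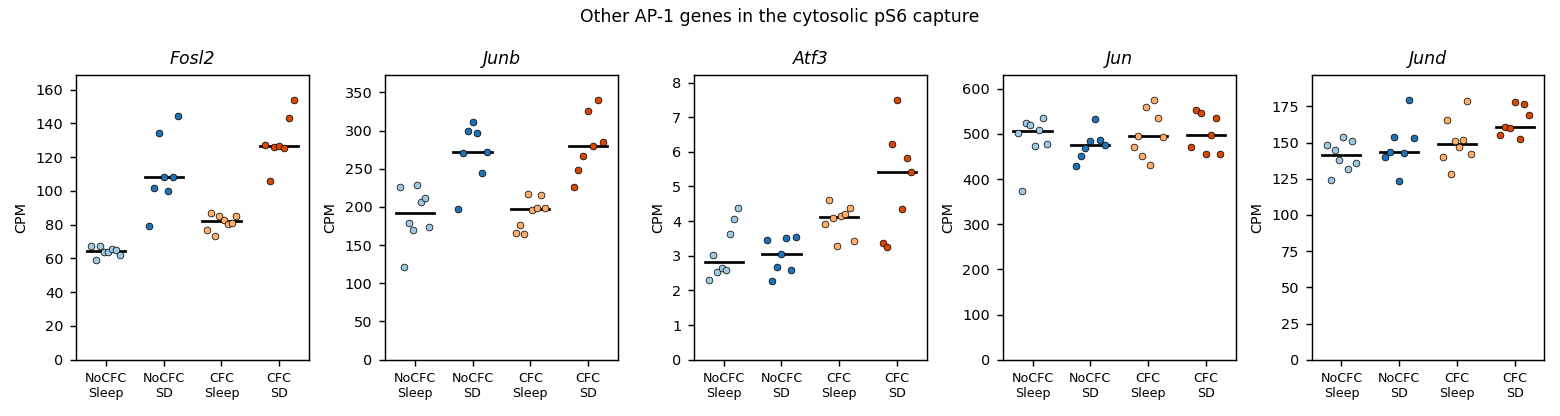
CPM of Fosl2, Junb, Atf3, Jun and Jund in cytosolic pS6 for each of 30 mice by group (linear axes from 0; bars are medians). Fosl2 rises with SD in both arms (medians 64.5 to 108 and 81.9 to 127 CPM), Atf3 is higher in trained mice, and Jun stays between 374 and 574 CPM.

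Markers of inhibitory neurons moved with SD in the same captures. In cytosolic pS6, 9 of 9 such markers rose (4.6% of all genes), from 0.22 for Pvalb to 0.54 for Sst. Their summed level ran from 716.6 to 954.0 CPM in Sleep and from 953.1 to 1246.6 CPM in SD mice. In membrane pS6, where 1.11% of all genes rose, 4 of 9 did (sums of 1197.3 to 1610.6 against 1576.5 to 2108.9 CPM). In the 4 other types none passed. Of 7 astrocyte markers Gjb6 rose in cytosolic pS6, by 0.81 ± 0.22, and all 7 had positive values there, from 0.26 upwards (sums of 371.1 to 1345.7 CPM in Sleep and 453.1 to 1711.8 in SD mice). Gjb6 also rose in membrane Camk2a (0.44) and in cytosolic and membrane Input (0.32 and 0.38). Of 7 excitatory markers 2 fell in cytosolic pS6 (Neurod6 and Itpka, where 3.28% of all genes fell) and 3 in membrane pS6. The part of the caught cells in the rise of the AP-1 genes was not tested. By the test of the difference, 5 of the 9 inhibitory markers had a larger SD effect in cytosolic pS6 than in cytosolic Input. None did against cytosolic Camk2a, with 0.508% and 0.365% of all genes larger in these comparisons.

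Whether the SD effect was larger in pS6 than in the other library types was tested as the difference of the effects. Against cytosolic Camk2a, the cytosolic pS6 effect was larger by 0.77 ± 0.17 for Fosb (adjusted p = 0.01) and by 0.49 ± 0.08 for Fosl2 (adjusted p = 0.00013), 2 of 7 where 0.365% of all genes had a larger effect. With the mouse number as a block, Fos (0.54, adjusted p = 0.016) and Junb (0.37, adjusted p = 5.1e-05) also passed. Against cytosolic Input, the effect in pS6 was larger by 0.78 ± 0.17 for Fos (adjusted p = 0.006), by 0.51 ± 0.11 for Junb (adjusted p = 0.005) and by 0.43 ± 0.10 for Fosl2 (adjusted p = 0.0072), 3 of 7 against 0.508% of all genes, and Fosb passed with the block (0.61, adjusted p = 0.00062). In the membrane fraction Fosl2 passed against Camk2a (0.44 ± 0.09, adjusted p = 0.031, 0.053% of all genes) and Fosb against Input (0.92 ± 0.21, adjusted p = 0.041, 0.0994% of all genes). Neither passed without mouse 1, with adjusted p of 0.062 and 0.051. With the block Fosb (0.70, adjusted p = 0.0033) also passed against membrane Camk2a, and Fosl2 (0.46, adjusted p = 0.01) and Junb (0.34, adjusted p = 0.019) against membrane Input. Between the membrane and cytosolic pS6 captures, and between Camk2a and Input in either fraction, no member's SD effect differed by edgeR's test (0.0% of all genes were larger), at most 1 of 7 had an unadjusted p under 0.05, and DESeq2 also called none.

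**Figure D4:**
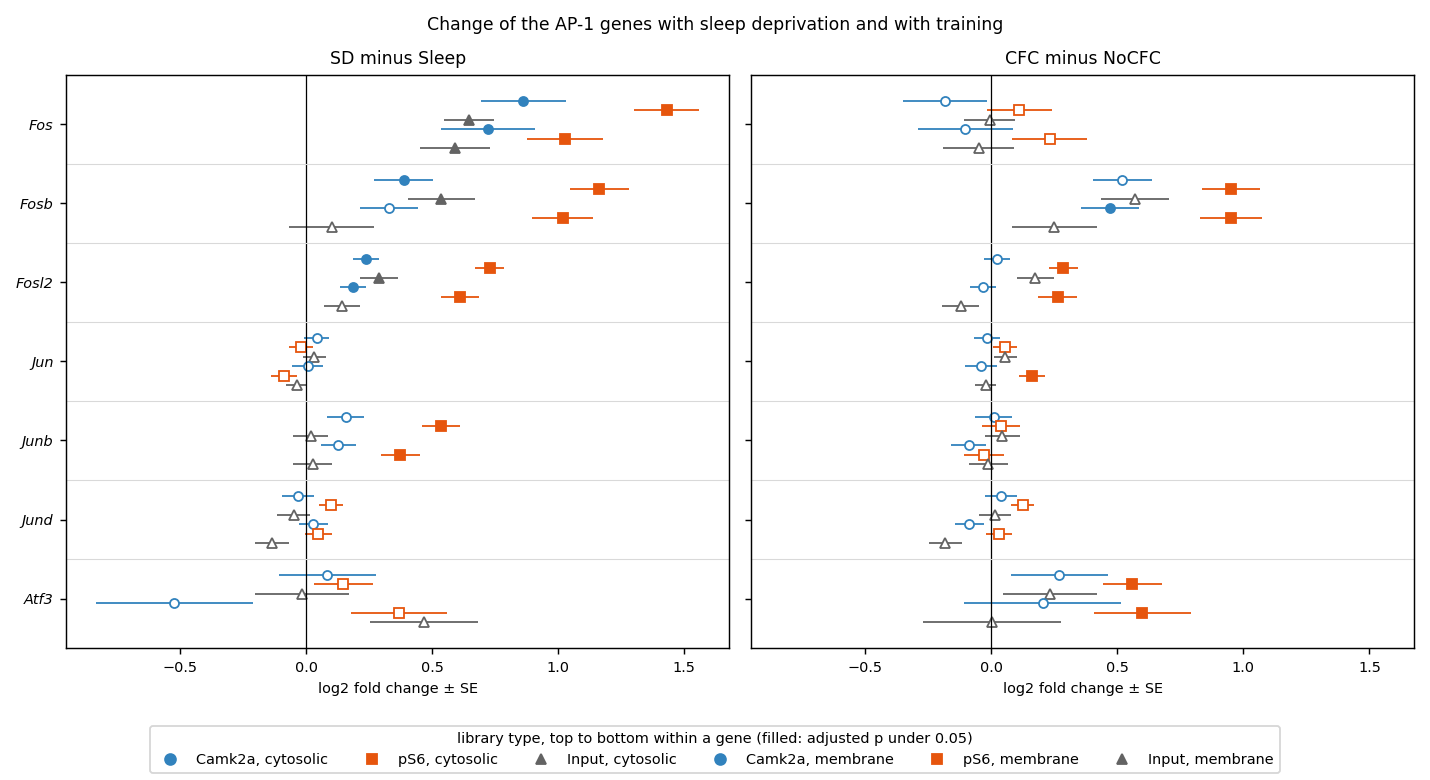
Log2 fold change ± SE of the 7 genes for SD minus Sleep (left) and CFC minus NoCFC (right) in the 6 library types, filled where the adjusted p was under 0.05. Fos stands at 0.59 to 1.43 after SD and at -0.18 to 0.23 after CFC, and Fosb in the pS6 captures at 1.16 and 1.02 after SD and at 0.95 and 0.95 after CFC.

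Training raised Fosb but gave no called change of Fos. The comparison was CFC minus NoCFC over both sleep arms, 15 against 15 mice. In cytosolic pS6, 3 of 7 members rose (0.127% of all genes, or 21 genes): Fosb by 0.95 ± 0.12 (adjusted p = 4e-05), Atf3 by 0.56 ± 0.12 (adjusted p = 0.029) and Fosl2 by 0.29 ± 0.06 (adjusted p = 0.023). Fosb ranked 2 among all 16485 genes tested there, and 15 of 15 trained mice were above the untrained median. In membrane pS6, 4 of 7 rose (8.1% of all genes): Fosb by 0.95 ± 0.12 (adjusted p = 5.3e-06), Atf3 by 0.60 ± 0.19, Fosl2 by 0.26 ± 0.08 and Jun by 0.16 ± 0.05. In membrane Camk2a, Fosb alone of the 7 rose (9.81% of all genes), by 0.47 ± 0.11 (adjusted p = 0.0046).

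In cytosolic Camk2a and cytosolic Input Fosb was at 0.52 ± 0.12 and 0.57 ± 0.13, with adjusted p of 0.055 and 0.057, so no member passed edgeR's test (0.128% and 0.169% of all genes rose; 1 and 2 of the 7 had an unadjusted p under 0.05). DESeq2 called Fosb in both, with adjusted p of 0.0074 and 0.0076, and without mouse 6, the library that stands apart in cytosolic Input, edgeR called it there at 0.51 (adjusted p = 0.035). In membrane Input no member passed either tool (3.63% of all genes rose; 1 of 7, Jund, had an unadjusted p under 0.05), and Fosb was at 0.25 ± 0.17. Fos lay between -0.18 ± 0.17 in cytosolic Camk2a and 0.23 ± 0.15 in membrane pS6, with 0.11 ± 0.13 (95% interval of -0.14 to 0.36) in cytosolic pS6. In mice 23 to 30 alone Fos was at 0.37 in cytosolic and 0.44 in membrane pS6, against 0.05 and 0.14 in mice 1 to 22; with the number run as a term it was at 0.36 and 0.42 (edgeR, adjusted p of 1 and 0.74). Junb lay between -0.09 ± 0.07 and 0.04 ± 0.07, and Jund ran from -0.18 ± 0.07 (membrane Input) up to 0.12 ± 0.05 (cytosolic pS6), none of them called.

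Within the 8 mice numbered 23 to 30, the only run with trained and untrained mice, Fosb in cytosolic pS6 was 14.6 and 12.9 CPM in NoCFC Sleep, 33.5 and 44.4 in NoCFC SD, 30.8 and 32.8 in CFC Sleep and 68.2 and 80.0 in CFC SD. Both trained mice lay above both untrained mice of the same sleep arm. The difference of the run's means was 1.07 for Fosb in cytosolic pS6 against 0.92 in mice 1 to 22, and 1.30 against 0.79 in membrane pS6. With the run as a term of the fit Fosb stayed called, at 1.08 (adjusted p = 0.042) in cytosolic and 1.27 (adjusted p = 0.0092) in membrane pS6, where 2 and 12 genes were called in all. The other training calls ended under that fit: Fosb in membrane Camk2a (0.77, adjusted p = 0.34), Fosl2 (0.31 and 0.37), Atf3 (0.37 and 0.47) and Jun (0.14). Fos turned from negative to positive in cytosolic and membrane Camk2a (0.31 and 0.51) and in cytosolic and membrane Input (0.30 and 0.16), none called. Atf3 in cytosolic pS6 also missed the test without mouse 1 (0.53, adjusted p = 0.057).

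Atf3 in cytosolic pS6 ran from 2.29 to 4.36 CPM (median 2.83) in NoCFC Sleep, 2.27 to 3.55 (median 3.06) in NoCFC SD, 3.29 to 4.60 (median 4.13) in CFC Sleep and 3.25 to 7.48 (median 5.41) in CFC SD. The trained and untrained mice overlapped in both sleep arms, although 15 of 15 trained mice were above the untrained median. Markers of other cells moved with training in the membrane captures. In membrane Camk2a 4 of 7 astrocyte, 4 of 7 microglia and 3 of 7 oligodendrocyte markers rose (9.81% of all genes). Summed astrocyte markers ran there from 998.4 to 1644.2 CPM in NoCFC and from 1056.6 to 2605.8 in CFC mice. Microglia markers summed to 104.0 to 164.5 and 111.5 to 287.9 CPM, and oligodendrocyte markers to 1217.4 to 2290.4 and 1032.2 to 2853.8 CPM. In membrane pS6 2 of 7 microglia and 2 of 7 endothelial and blood markers rose (8.1% of all genes), and 2 of 7 oligodendrocyte markers fell (8.75%). Their part in the Fosb result was not tested. In cytosolic pS6 none of the 44 markers passed, in a comparison that called 22 genes in all.

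Taken by sleep arm, training raised Fosb after sleep by 1.20 ± 0.16 in cytosolic pS6 (adjusted p = 0.00068; 3 genes were called, and Fosb had the smallest p of all; 0.0182% of all genes rose) and by 1.16 ± 0.17 in membrane pS6 (adjusted p = 0.00024; 2.6%). The CFC Sleep and NoCFC Sleep mice did not overlap in Fosb in either pS6 capture. In SD mice training gave 0.70 ± 0.17 in cytosolic pS6 (adjusted p = 0.26; 0.0243% of all genes rose) and 0.74 ± 0.18 in membrane pS6 (adjusted p = 0.012; 2.95%). Taken by training arm, SD raised Fosb in cytosolic pS6 by 1.41 ± 0.17 without (1.66% of all genes rose) and by 0.91 ± 0.16 with training (1.41%), and Fos by 1.46 ± 0.18 and 1.40 ± 0.18. The difference between these SD effects was -0.50 ± 0.23 for Fosb (adjusted p = 1) and -0.07 ± 0.26 for Fos, and no gene passed the interaction test in any of the 6 types by edgeR (0.0%; 295 to 712 genes had an unadjusted p under 0.05) or by DESeq2. No member's training effect was called larger in pS6 than in Camk2a or Input. In the cytosolic fraction 0.0% of all genes were, with 2 and 1 of the 7 at an unadjusted p under 0.05 and none called by DESeq2. In the membrane fraction the test also called none of the 7 (0.0177% of all genes were larger in membrane pS6 than in membrane Camk2a and 0.0468% than in membrane Input; 3 and 5 of the 7 had an unadjusted p under 0.05, and DESeq2 called 0 and 1, Fosl2). With the mouse block 3 passed in each of the membrane comparisons: Fosb (0.45 and 0.69, adjusted p of 0.043 and 0.025), Fosl2 (0.30 and 0.36, adjusted p of 0.009 and 0.019) and Jun (0.22 and 0.16, adjusted p of 0.024 and 0.041).

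The ratio of Fosb to Fos reads in a library sets both genes side by side without reference to depth. In cytosolic pS6 it ran from 0.568 to 1.11 (median 0.870) in NoCFC Sleep, 0.489 to 1.09 (median 0.859) in NoCFC SD, 1.24 to 1.99 (median 1.79) in CFC Sleep and 0.981 to 1.47 (median 1.17) in CFC SD. Trained and untrained sleeping mice did not overlap. The ratio was 1.77-fold higher in trained mice (log2 difference of 0.82, permutation test, p = 1e-05, the smallest it can give, adjusted p = 0.00012 over 12 tests). It was also higher after training in cytosolic Camk2a (0.65, adjusted p = 0.00066), cytosolic Input (0.57, adjusted p = 0.00048), membrane Camk2a (0.59, adjusted p = 0.0113) and membrane pS6 (0.70, adjusted p = 0.00066) in these permutation tests, and at 0.24 (adjusted p = 0.419) in membrane Input. In mice 23 to 30 alone, 4 against 4, the differences were 0.70 in cytosolic and 0.86 in membrane pS6, each with an exact permutation p of 0.0556 with labels shuffled within the sleep arms, the smallest its 36 arrangements allow, and 0.53, 0.30 and 0.28 in cytosolic Camk2a, cytosolic Input and membrane Camk2a.

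After SD the ratio moved the other way or did not pass. It was lower by a log2 difference of -0.51 in cytosolic Camk2a (permutation test, adjusted p = 0.0113) and -0.28 in cytosolic pS6 (adjusted p = 0.0389). In membrane Camk2a and membrane Input it was at -0.45 and -0.52 (permutation test, adjusted p of 0.0527 and 0.0648), which passed without mouse 1, at -0.54 and -0.61. In cytosolic Input and membrane pS6 it was at -0.09 and -0.03. With labels shuffled within the number runs none of the SD differences passed (-0.47 in cytosolic Camk2a and -0.22 in cytosolic pS6, adjusted p of 0.144 and 0.158). In cytosolic pS6 the SD and Sleep ratios of untrained mice overlapped almost wholly, and those of trained mice overlapped less.

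**Figure D5:**
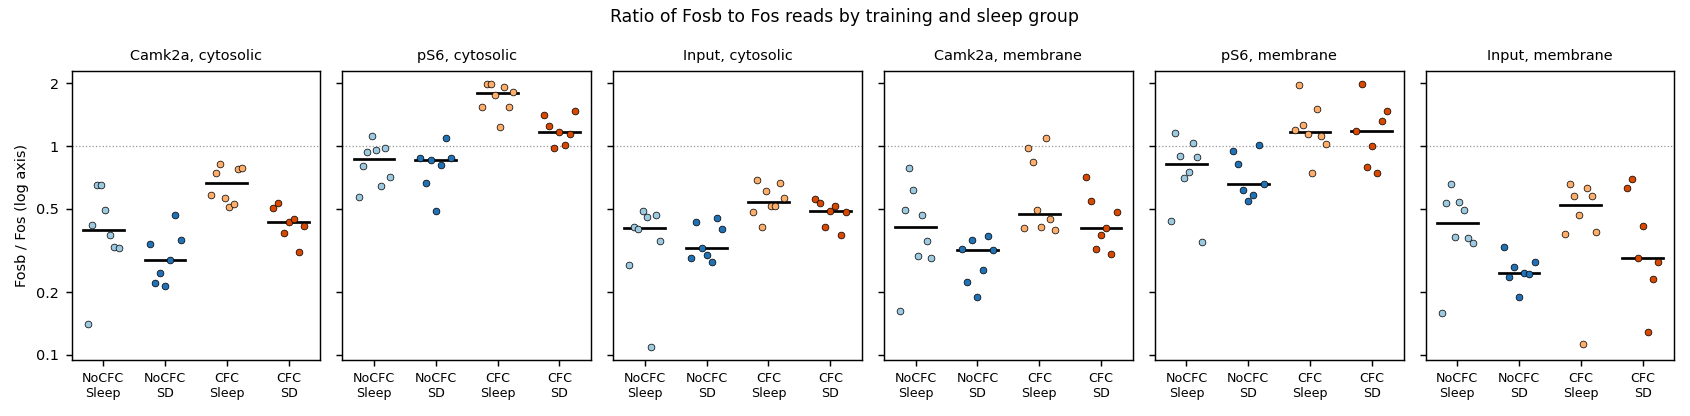
Ratio of Fosb to Fos (from log2 CPM with a prior count of 2; log axis) in each of 30 mice by group in the 6 library types; bars are medians and the dotted line marks equal reads. In cytosolic pS6 the CFC Sleep mice lie at 1.24 to 1.99, all above the NoCFC Sleep mice at 0.568 to 1.11.

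Mice also differed in Fos and Fosb together within their groups. After the 4 group means were taken away, Fos and Fosb correlated across 30 mice in cytosolic pS6 with r = 0.65 (permutation p = 0.00035, adjusted p = 0.0021 over 6 types) and rho = 0.61 (permutation p = 0.00087, adjusted p = 0.00522). Without the 2 mice farthest from the median in Fos r was 0.52, and within the number runs it was 0.67 (11 mice), 0.53 (11) and 0.52 (8). In cytosolic Input r was 0.34 (permutation test, adjusted p = 0.171) and rho 0.50 (adjusted p = 0.0248), and without mouse 6 r was 0.63 (adjusted p = 0.00192). In cytosolic Camk2a r was 0.40 (permutation test, adjusted p = 0.143), and without mouse 1 it was 0.54 (adjusted p = 0.0168). In the other types r lay between -0.27 and 0.37 and did not pass the adjusted permutation test. The values of Fos and Fosb in a library share its depth and scaling.

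The log2 CPM of genes outside the family was correlated with that of Fos and of Fosb over the 24 group means (4 groups in 6 types). Of the 13936 genes tested in all types, predicted genes (Gm or Rik names) were passed over. The closest genes to Fos were Egr2 (r = 0.928), an immediate-early transcription factor gene, Pfkfb3 (0.906), a regulator of glycolysis, Npas4 (0.878), a neuron-specific immediate-early gene, Banp (0.869) and Cdkn1a (0.867), a cell-cycle inhibitor gene. For Fosb those outside the family were Plgrkt (0.946), Gadd45g (0.944), an activity-induced gene linked to DNA demethylation, Nlk (0.931), a kinase gene, and Ndufa4 (0.929) and Cox7b (0.926), which code for subunits of the respiratory chain. Among the members Fosl2 was the closest to Fosb (0.979) and to Fos (0.926), while Fos and Fosb stood at 0.878. These correlations are descriptions: the 24 points share mice, and the library type sets much of their spread.

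Other AP-1 subunits and partners, 13 genes of which 10 or 11 were tested, moved in part with SD. In cytosolic pS6, 4 of 11 rose and none fell after SD, where 4.6% of all genes rose. Those that rose included Fosl1, the Fra-1 gene, by 0.60 ± 0.10, Atf4, a stress-response factor gene, by 0.30 and Maf by 0.25. The median over the 11 was 0.13 against 0.00 for all genes. In membrane pS6, where 1.11% of all genes rose, 3 of 11 did (Fosl1, Atf4 and Maf). Fosl1 also rose in cytosolic Camk2a by 0.37 and in cytosolic Input by 0.62. Jdp2, a repressive dimer partner gene, rose in membrane Camk2a by 0.20, and none was called in membrane Input. After training Mafg was lower at -0.19 in membrane Input, and none was called in either pS6 capture, cytosolic Camk2a or cytosolic Input.

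Of 30 kinases and activators upstream of AP-1 genes, 2 rose and 3 fell after SD in cytosolic pS6 (4.6% of all genes rose and 3.28% fell). Crem, a gene of the CREB family with activity-induced short repressor forms, rose by 0.64 (adjusted p = 1.5e-08) there, by 0.44 in membrane pS6 and by 0.25 in cytosolic Camk2a, and Rps6ka2, a kinase gene downstream of ERK, rose by 0.23. Among those that fell were the kinase genes Map2k1, at -0.11, and Rps6ka4, at -0.16. After training 1 of 30 rose in cytosolic pS6, where 0.127% of all genes rose (Mkl1, a coactivator of serum response factor, by 0.23). In membrane pS6 3 rose and 6 fell (8.1% of all genes rose and 8.75% fell). Those that fell there included the JNK kinase gene Mapk8 (-0.41) and the JNK scaffold genes Mapk8ip1 (-0.15), Mapk8ip2 (-0.36) and Mapk8ip3 (-0.26), and Crem was among those that rose, by 0.28. With the number run as a term 12 genes in all were called in membrane pS6 and 2 in cytosolic pS6. Of 11 genes reported as targets of AP-1 or ΔFosB, 10 were tested in cytosolic pS6, where 4.6% of all genes rose and 3.28% fell after SD. The neuropeptide precursor gene Pdyn rose by 0.36 and Scg2, a secretogranin gene, by 0.50. Calb1, which codes for the calcium buffer calbindin and is a known target of repression by ΔFosB, fell by 0.19 on the log2 scale. The other targets were not called there, with values of -0.14 to 0.33. Calb1 was at -0.02 in cytosolic and -0.08 in membrane Camk2a, neither called. A part of ΔFosB in these changes was not tested. After training none of the 10 passed in cytosolic pS6. In membrane pS6 3 rose and 1 fell of 11 (8.1% of all genes rose and 8.75% fell), among them Pdyn by 0.31, Penk by 0.37 and Camk2a at -0.31.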

How the data were processed

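The deposited table held raw counts per gene of 180 libraries; per the submitters' processing notes the authors used STAR 2.6.1a, featureCounts and MultiQC 1.6a0 with GRCm38.p6, and per the labels the libraries were made with SMART-seq v4. Strand setting and annotation version are not given in the sources used here. From these counts edgeR 4.0.16 (R 4.3.3, limma 3.58.1; filterByExpr, TMM scaling, robust quasi-likelihood test) was fitted to each library type alone, with 4 groups, and to pairs of types together, with Benjamini-Hochberg adjustment over all genes tested and a limit of 0.05; level calls also needed a fold of 2. Log2 CPM used a prior count of 2. The scripts were tested on simulated data. Ratio and correlation tests used scipy 1.17.1 with 100000 permutations, and DESeq2 1.42.0 was an alternative. Intervals are 1.96 SE either side. The 7 members and the lists of other subunits, upstream factors, targets and markers were chosen with earlier results of these data known; the text names the members, called list genes as examples and, for Fos and Fosb, the 5 genes most alike. The same number marks the same mouse in every library type: residuals of same-numbered libraries correlated at a median of 0.279 over 450 pairs against -0.0119 over 13050 others. No pair of replicates agreed within sampling noise (lowest chi-square per degree of freedom 3.01 over 588 pairs). Some list genes are not reported here.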

Additional observations from a re-analysis of the deposited data

Results flagged for a closer look

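Single mice stood apart from their group in 14 of 168 tested sets of gene, library type and group, by a gap to the nearest mouse that is large against the group's range; chance gives about 1 in 20, or 8.4. For Fos these were mouse 1 in cytosolic Camk2a (24 CPM) and membrane Camk2a (17.2 CPM), mouse 29 in cytosolic Camk2a (26 CPM) and mouse 9 in cytosolic Input (20.7 CPM), all highest of their group, and mouse 19 in membrane pS6 (8.83 CPM), the lowest. For Fosb they were mouse 6 in cytosolic Input (0.961 CPM) and mouse 20 in cytosolic Input (4.74 CPM), each the lowest, and mouse 9 in membrane Camk2a (5.91 CPM), the highest. Fosl2 was low in mouse 6 in cytosolic Input (19.6 CPM) and mouse 16 in membrane Input (16.2 CPM). In cytosolic pS6 mouse 2 was the lowest NoCFC Sleep mouse in both Jun (374 CPM) and Junb (121 CPM). Atf3 in membrane pS6 was low in mouse 15 (1.04 CPM) and high in mouse 18 (5.54 CPM). The libraries of mice 6, 16 and 19 named here are among those that correlated less well with the others of their type.

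The effect of sleep deprivation differed between library types by the test of the difference itself in 7 cases. Cytosolic pS6 exceeded cytosolic Camk2a for Fosl2 (0.49) and Fosb (0.77), and cytosolic Input for Fos (0.78), Fosl2 (0.43) and Junb (0.51), as log2 differences. Membrane pS6 exceeded membrane Camk2a for Fosl2 (0.44) and membrane Input for Fosb (0.92). The fits behind these took the libraries of a mouse as separate; with the mouse number as a block all 7 passed, and so did other members named in the report. The 2 membrane cases did not pass without mouse 1.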

How the results depend on the processing

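Fos, Fosb, Fosl2 and Junb after sleep deprivation in the pS6 captures were each called under 6 of 6 alternatives. So was Fosb after training in both pS6 captures. After sleep deprivation Fos and Fosb in cytosolic Input were called under 6 of 6, and Fos and Fosl2 in cytosolic Camk2a under 5 of 5. The other members called after sleep deprivation or training were not called under every alternative. Below, the value in brackets is the one reported, and the cause of a change was not tested. The 2 alternatives without mouse 1 or without the libraries that stand apart were chosen after seeing the data.

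With DESeq2 the members called after training were 1 (0) in cytosolic Camk2a and 1 (0) in cytosolic Input, and all genes called after training were 57 (22) and 79 (35) there and 55 (22) in cytosolic pS6, with 466 (287) after SD in membrane pS6. Members whose SD effect differed were 2 (1) for membrane pS6 against Camk2a and 2 (1) against Input, and 1 (0) for the training effect against Input. The Jun level in membrane minus cytosolic Input turned to 0.056 (-0.05) with DESeq2, 0.056 with RLE size factors and 0.060 without a low-count filter.

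On the adjusted p alone, without the 2-fold limit, members called in levels were 5 in membrane minus cytosolic Camk2a, 5 in membrane minus cytosolic Input and 7 in membrane minus cytosolic pS6 (each 0), 7 (1) in membrane Camk2a minus Input, 6 (0) in cytosolic Camk2a minus Input, 7 (2) in membrane and 7 (3) in cytosolic pS6 minus Camk2a.

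Without the libraries that stand apart, members called were 1 (0) after training in cytosolic Input, 1 (2) after SD in membrane Camk2a and 2 (1) for the SD difference of membrane pS6 and Input. The Fos and Fosb correlation was 0.020 (-0.27) in membrane Input and 0.63 (0.34) in cytosolic Input, and the ratio in membrane Input passed at 0.53 after training and -0.49 after SD. Training values near 0 changed sign for Fos (0.015) and Jund (-0.012) in cytosolic Input, Junb in membrane pS6 (0.020) and Fos in sleeping mice in membrane Input (-0.019).

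Without mouse 1, 12 (22) genes were called after training in cytosolic Camk2a, 1 (2) member after SD in membrane Camk2a, and 0 (1) for the SD difference of membrane pS6 from Camk2a and 0 (1) from Input. The correlation in cytosolic Camk2a was 0.54 (0.40), and the SD ratio passed in membrane Camk2a (-0.54) and membrane Input (-0.61). Training values changed sign for Fos in membrane Camk2a (0.055), membrane Input (0.063) and cytosolic Input (0.051), for Atf3 (-0.046) and Junb (0.014) in membrane Input and for Junb in membrane pS6 (0.0023). In sleeping mice Fos turned to 0.24 in membrane and 0.20 in cytosolic Camk2a, and Atf3 after SD in cytosolic Input to 0.012.

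Without a low-count filter, genes called were 14 (22) after training in cytosolic Camk2a, 20 (35) in cytosolic Input and 322 (506) after SD in cytosolic Input. Members called after SD were 0 (2) in membrane Camk2a and 0 (1) in membrane Input, and 0 (1) for the SD difference of membrane pS6 and Input.

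With the number run as a term, members called after training were 0 (1) in membrane Camk2a, 1 (4) in membrane pS6 and 1 (3) in cytosolic pS6. All genes called fell to 1 (2542) in membrane Camk2a, 0 (22) in cytosolic Camk2a, 0 (1022) in membrane Input, 0 (35) in cytosolic Input, 12 (2803) in membrane pS6 and 2 (22) in cytosolic pS6, and 1 (0) gene passed the interaction in cytosolic Input. Training values changed sign for Fos in membrane Camk2a (0.51), cytosolic Camk2a (0.31), membrane Input (0.16) and cytosolic Input (0.30), Fosl2 in membrane Camk2a (0.00080), Jund in cytosolic Camk2a (-0.045) and Junb in membrane Input (0.053) and membrane pS6 (0.080). For Fos they also did so in SD mice in membrane Camk2a (0.46), cytosolic Camk2a (0.24) and cytosolic Input (0.27), and in sleeping mice in membrane (0.55) and cytosolic (0.37) Camk2a.

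With the replicate block, the mouse number, members called were 3 (0) for the training difference of membrane pS6 from Camk2a and 3 (0) from Input, 2 (1) and 3 (1) for the SD differences of the same pairs, and 4 (2) for the SD difference of cytosolic pS6 and Camk2a. The block changed no count of members called in the 9 level comparisons. Within the number runs the training ratio was 0.28 in membrane Camk2a, 0.53 in cytosolic Camk2a, 0.30 in cytosolic Input, 0.86 in membrane pS6 and 0.70 in cytosolic pS6, none past the threshold, which the 36 arrangements of labels within the sleep arms cannot reach in mice 23 to 30. The SD ratio was -0.47 in cytosolic Camk2a and -0.22 in cytosolic pS6, neither passing, and 0.13 in membrane pS6.

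Depth limits the lowest values: Atf3 had 1 to 28 counts per library outside the pS6 captures and Fosb 13 to 60 in membrane Input.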
